A study of Bos taurus with 12 samples.

Results

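The small leucine-rich proteoglycans are secreted matrix proteins built on a curved core of leucine-rich repeats. The 10 genes described here, DCN, BGN, LUM, FMOD, OGN, ASPN, PRELP, OMD, ECM2 and PODN, were taken by gene name from the mRNA expression matrix, which has 33714 rows. Of the 10, 9 had a row of their own, and all 9 were among the 15402 mRNAs with a mean of at least 0.1 FPKM (fragments per kilobase of transcript, scaled by the mapped fragments of the library) that were tested. PRELP was listed only in a row shared with its neighbour OPTC (PRELP;OPTC, below the joint row), so its values are uncertain and are kept out of all counts of members.

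RNA was sequenced from primary intramuscular preadipocytes, the precursors of the fat cells that lie between muscle fibres, isolated from the longissimus dorsi of newborn Qinchuan cattle. The 12 libraries cover uninduced cells, named 0 d, and cells taken 3, 6 and 9 d into differentiation, 3 libraries a day. Induction used, per the labels, IBMX at 0.5 mM, insulin at 5 µg/mL and dexamethasone for 48 h, followed by insulin alone. The labels write the dexamethasone dose in g/mL, and the study's methods give other amounts of dexamethasone and insulin. All groups were the same cells in the same serum-containing growth medium, to which the inducers were added for the induced cells. The paper calls the 3 libraries biological replicates without saying whether they came from separate animals or from a pool. Its discussion speaks of 1 batch of adipocytes sequenced at all time points, so p-values measure the spread between these libraries only.

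Members of this family bind collagen fibrils and set how thick and how regularly spaced the fibrils become. Several also hold growth factors such as TGF-beta and myostatin in the matrix or bind receptors at the cell surface, and in muscle and fat they are made mainly by fibroblasts and other stromal cells. They are sorted into classes by sequence: DCN, BGN, ASPN and ECM2 belong to class I, FMOD, LUM, OMD and PRELP to class II, OGN to class III and PODN to class V. In the RefSeq annotation of assembly ARS-UCD2.0, in which all 10 were found, LUM and DCN are neighbours on chromosome 5. OGN, OMD, ASPN and ECM2 follow each other on chromosome 8, FMOD and PRELP are neighbours on chromosome 16, PODN is on chromosome 3 and BGN on chromosome X. The 4 genes of chromosome 8 lie within the span of CENPP, a centromere protein gene that was listed at 1.07 to 2.50 FPKM (median 1.60) in the 12 libraries. The study's methods describe strand-specific libraries, and whether strand was used in quantification is not given in the sources used here.

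FPKM are scaled by transcript length, so levels can be set side by side between genes, but they hold no counts and the depth behind a single value is unknown. Days were compared with limma on log2(FPKM + 0.1) in a single fit of all 12 libraries, and a call needed a log2 fold change beyond 1 in either direction together with a p-value under 0.05 after Benjamini-Hochberg adjustment over all tested mRNAs. The comparisons of 3, 6 and 9 d with 0 d share the 0 d libraries, and those of neighbouring days share the 3 d and 6 d libraries with them, so the 5 comparisons are not independent. In bulk RNA, fewer cells of a kind and less RNA per cell cannot be told apart.

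DCN was the most abundant member on every day, with a mean of 9949 ± 534 FPKM at 0 d and 44460 ± 609 at 9 d (SD, n = 3). Among all mRNAs it ranked 9, 11 and 10 in the 0 d libraries, 3 in each 3 d library and 4 in each library of 6 d and 9 d. It held 0.719% to 0.785% of the summed mRNA FPKM at 0 d, 3.38% to 3.42% at 3 d, 2.37% to 2.47% in the 6 d libraries and 3.22% to 3.32% in those of 9 d. The ranges of the days did not overlap. This share was highest at 3 d, whereas the FPKM of DCN were highest at 9 d.

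Below DCN the order changed with the day. At 0 d it ran FMOD (1663 FPKM), OGN (1407), ASPN (306), LUM (216), ECM2 (183), BGN (96.6), OMD (37.5), PODN (34.9) and the joint row (21.8), where the libraries of LUM and ECM2, of OMD and PODN and of PODN and the joint row overlapped. At 3 d the order was OGN (737 FPKM), LUM (636), FMOD (249.8), ASPN (185), ECM2 (96.7), PODN (79.8), BGN (62.0), OMD (16.2) and the joint row (8.44), with overlaps between FMOD and ASPN and between OMD and the joint row. LUM had thus moved ahead of FMOD by 3 d. All FMOD libraries of that day lay below the highest ASPN library, replicate 1 (315 FPKM). The other ASPN libraries of 3 d, at 117 and 124 FPKM, lay below all FMOD libraries. At 6 d OGN (853 FPKM), LUM (694), FMOD (422) and ASPN (209) led again, and at 9 d OGN (1378 FPKM) and FMOD (1363) overlapped at the head, ahead of LUM (683) and ASPN (453). From 6 d on, BGN, ECM2, OMD, PODN and the joint row stayed at means of 6.60 to 107 FPKM, and several of these neighbours in the order overlapped.

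**Figure D1:**
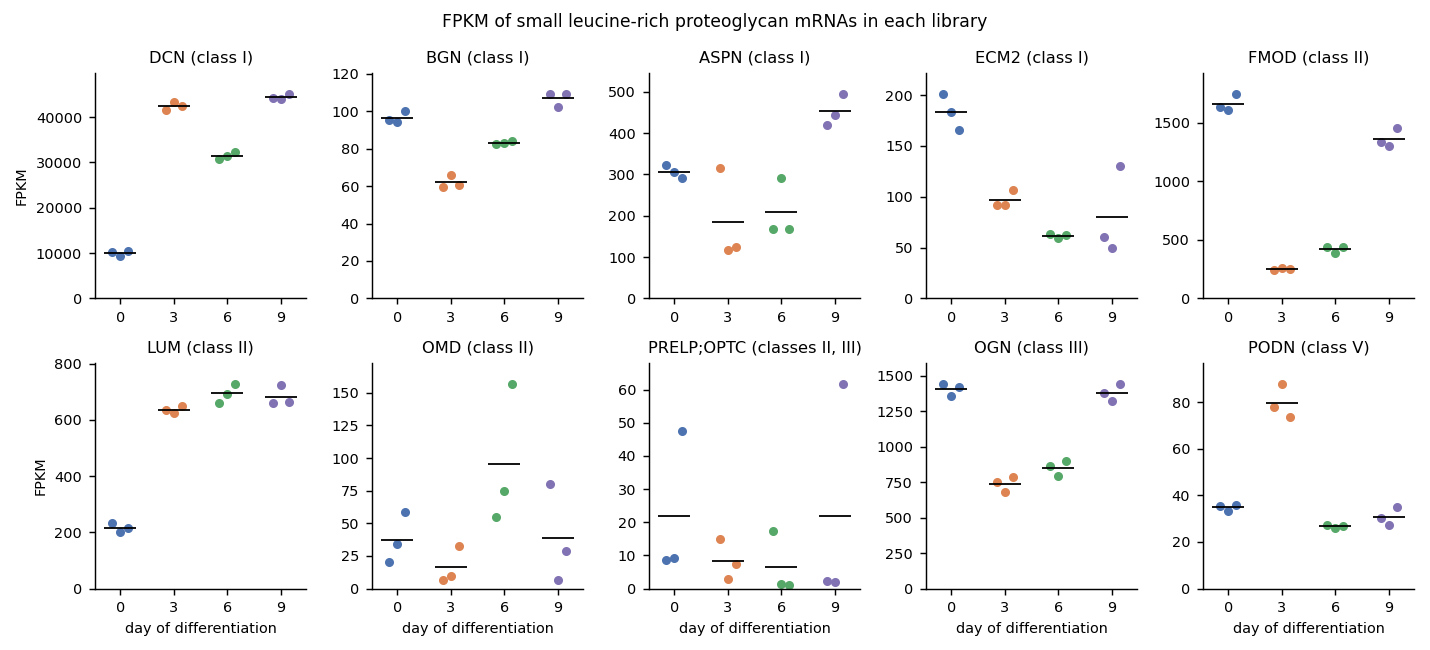
FPKM (vertical axes, each from 0) of the 10 rows by day of differentiation (horizontal axes); each point is a library and each black bar the mean of the 3 libraries of a day. DCN and LUM lie higher on each later day than at 0 d, FMOD and OGN are lowest at 3 d, PODN is highest at 3 d, and ASPN, OMD, the joint row and the 9 d libraries of ECM2 scatter within a day.

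At 3 d vs. 0 d, 4 of the 9 members were called with limma, against 23.3% of all tested mRNAs. DCN, LUM and PODN were the 3 called higher (background 8.06%), and FMOD was the 1 called lower (background 15.2%). The 2 days were separate in 7 of the 9, with no overlap between their libraries, against 59.3% of tested mRNAs. The median log2 fold change of the 9 was -0.88, beside -0.06 for all tested mRNAs.

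At 6 d vs. 0 d, 4 members were called (background 11.4%), DCN and LUM higher (2 members, background 3.39%) and FMOD and ECM2 lower (2 members, background 7.97%). Here 7 of the 9 did not overlap between the days, against 47.9% of tested mRNAs, and the members' median of -0.38 stood beside -0.15. At 9 d vs. 0 d, 3 members were called (background 10.9%). DCN and LUM were the 2 higher (background 3.41%) and ECM2 the 1 lower (background 7.47%), 6 of the 9 did not overlap (background 49.9%), and the medians were -0.03 and -0.19.

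Between neighbouring days, 2 members were called at 6 d vs. 3 d (background 19.1%). OMD was the 1 higher (background 9.85%) and PODN the 1 lower (background 9.23%), and 8 of the 9 did not overlap (background 58.6%). The median was 0.21 for the members and -0.09 for all tested mRNAs. At 9 d vs. 6 d, 2 members were called (background 4.43%), FMOD and ASPN, both higher (2 members, background 2.55%). In this comparison 0 members were called lower by limma (background 1.89%). The libraries did not overlap for 6 of the 9 (background 39.0%), with medians of 0.36 and -0.04.

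Rescaling the FPKM by the median ratio between libraries shifted the median log2 fold change of all mRNAs by 0.157 at 6 d vs. 0 d and by 0.191 at 9 d vs. 0 d. After it, 40.6% of the mRNAs called at 6 d vs. 0 d were higher in place of 29.8%, and 46.6% in place of 31.3% at 9 d vs. 0 d. No call of a member changed under this rescaling. The directions of OGN and PODN at 9 d vs. 0 d and of LUM at 9 d vs. 6 d, none of them called, did turn.

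**Figure D2:**
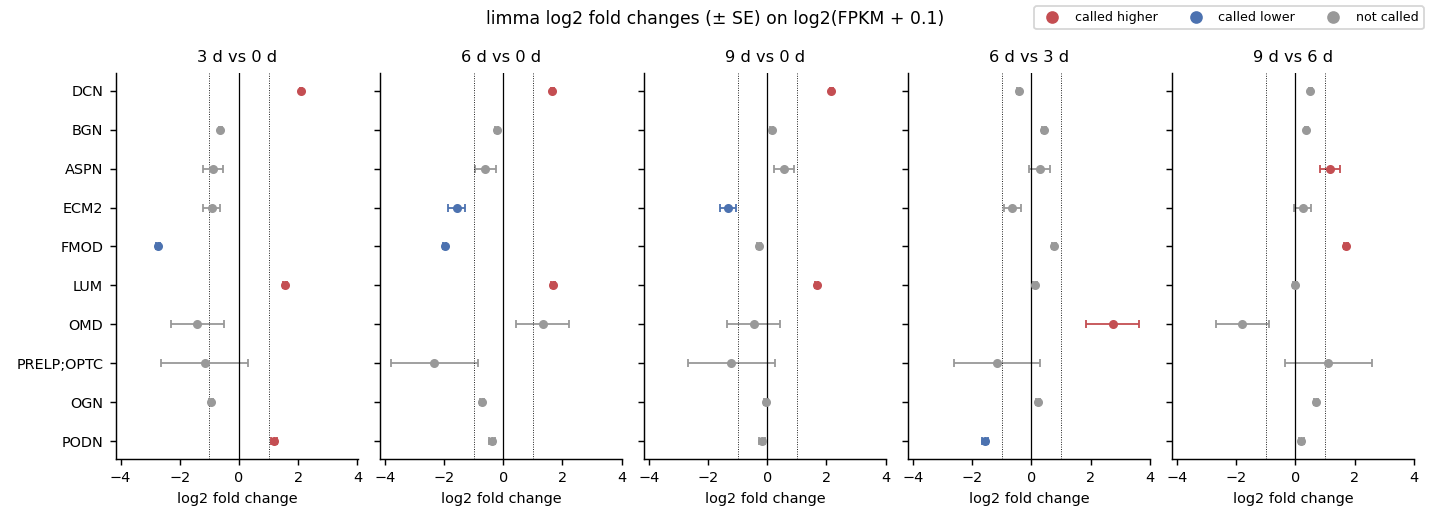
Log2 fold changes from limma (horizontal axes, on log2(FPKM + 0.1)) with their standard errors as bars, for each row and comparison; red points were called higher, blue points called lower and grey points not called, and dotted lines mark a log2 fold change of 1 in either direction. DCN and LUM are called higher in all 3 comparisons with 0 d, and the bars of OMD and the joint row are the widest.

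Among the class I members, DCN encodes decorin, which binds collagen fibrils through its core and sequesters TGF-beta. The 0 d libraries had 10152, 9343 and 10352 FPKM, the 3 d libraries 41517, 43388 and 42386, the 6 d libraries 30688, 31332 and 32373 and the 9 d libraries 44166, 44061 and 45164. No 2 days overlapped, and each library after induction lay far above each 0 d library. Relative to 0 d, DCN rose 4.26-fold at 3 d (log2 2.09, SE 0.043, limma with Benjamini-Hochberg adjusted p = 1.9e-10), 3.16-fold at 6 d (log2 1.66) and 4.47-fold at 9 d (log2 2.16). The course was not steady: 6 d stood at -0.43 on the log2 scale from 3 d and 9 d at 0.50 from 6 d, both smaller than the fold threshold, with limma Benjamini-Hochberg adjusted p-values of 1.9e-05 and 3.2e-05.

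BGN, biglycan, is the closest relative of decorin and is also a ligand of the receptors TLR2 and TLR4 when set free from the matrix. Its FPKM were 95.50, 94.27 and 99.87 at 0 d, 59.48, 65.83 and 60.75 at 3 d, 82.54, 82.97 and 83.95 in the 6 d libraries and 109.34, 102.30 and 109.37 in those of 9 d. The 4 days did not overlap, with the lowest values at 3 d and the highest at 9 d. BGN was called in no comparison: its log2 fold change was -0.64 (SE 0.054, limma with Benjamini-Hochberg adjusted p = 4.2e-06) at 3 d vs. 0 d, under the fold threshold, and 0.15 at 9 d vs. 0 d. Rescaling by the median ratio made the latter 0.356 (limma with Benjamini-Hochberg adjusted p = 0.000977) and moved 6 d vs. 0 d from -0.215 (adjusted p = 0.011) to -0.045 (adjusted p = 0.607), so that these small differences depend on the scaling. As deposited, the ranges of its libraries were thus separate at changes of less than 1.73-fold from the lowest to the highest day.

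ASPN, asporin, lacks the site for a glycosaminoglycan chain and binds collagen and TGF-beta. The values were 322, 306 and 291 FPKM at 0 d, 315, 117 and 124 at 3 d, 169, 292 and 167 in the 6 d libraries and 419, 444 and 495 in those of 9 d. At 3 d a single library, replicate 1, lay at the 0 d level, and at 6 d replicate 2 did. All 9 d libraries exceeded those of every other day. ASPN rose 2.16-fold at 9 d vs. 6 d (log2 1.16, SE 0.35, limma with Benjamini-Hochberg adjusted p = 0.041), higher in each 9 d library. That call held in 11 of 21 alternatives (limma Benjamini-Hochberg adjusted p from 0.0029 to 0.124). It was lost without any one of the 0 d and 9 d libraries (adjusted p from 0.0563 to 0.108), without 6 d replicate 1 or replicate 3 (adjusted p = 0.121 and 0.124) with no filter on low values (adjusted p = 0.0581) and with a replicate block (adjusted p = 0.0661). At 3 d vs. 0 d the log2 fold change was -0.88 (limma with Benjamini-Hochberg adjusted p = 0.057), and without 3 d replicate 1 it was -1.35 and called (adjusted p = 0.000753, in a range from 0.000753 to 0.188 over all alternatives).

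ECM2, a matrix protein that joins a leucine-rich repeat domain to a von Willebrand factor type C domain, had 201, 183 and 166 FPKM at 0 d and 91.46, 91.60 and 107 at 3 d. The later libraries had 63.54, 59.24 and 62.50 at 6 d and 60.25, 49.22 and 130.1 at 9 d. All libraries after induction lay below all 0 d libraries, and the third 9 d library stood apart from the other two of its day. ECM2 fell at 6 d vs. 0 d (log2 -1.57, SE 0.29, limma with Benjamini-Hochberg adjusted p = 0.0019) and at 9 d vs. 0 d (log2 -1.33, adjusted p = 0.0047), lower in 3 of 3 libraries both times. At 3 d vs. 0 d the log2 fold change of -0.92 was under the fold threshold. At 9 d vs. 6 d it was 0.24, and -0.18 without 9 d replicate 3, and neither was called.

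Among the class II members, FMOD encodes fibromodulin, a keratan sulfate proteoglycan that binds type I collagen and takes part in its cross-linking. It had 1632, 1608 and 1749 FPKM at 0 d, 239, 260.0 and 250.4 at 3 d, 439, 390.1 and 435 in the 6 d libraries and 1333, 1298 and 1459 in those of 9 d. The 4 days did not overlap, and the 9 d libraries came back to just under the 0 d libraries. FMOD fell by 2.73 on the log2 scale at 3 d vs. 0 d (SE 0.066, limma with Benjamini-Hochberg adjusted p = 5.4e-10), which is 6.66-fold on the means. It fell by 1.98 at 6 d vs. 0 d (3.95-fold on the means). At 9 d vs. 6 d it rose 3.23-fold (log2 1.69, limma with Benjamini-Hochberg adjusted p = 2.7e-07), and at 9 d vs. 0 d it was not called (log2 -0.29, 95% interval -0.43 to -0.14), and rescaling by the median ratio made this -0.079 (limma with Benjamini-Hochberg adjusted p = 0.441).

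LUM, lumican, shares a binding site on collagen with fibromodulin and keeps fibrils thin in skin and cornea. The libraries had 232, 199.6 and 215 FPKM at 0 d, 635, 624 and 648 at 3 d, 662, 693 and 728 in the 6 d libraries and 660.4, 726 and 664 in those of 9 d. Every library after induction was far above every 0 d library, 3 d lay just below 6 d, and 6 d and 9 d overlapped. LUM rose 2.95-fold at 3 d vs. 0 d (log2 1.56, SE 0.064, limma with Benjamini-Hochberg adjusted p = 2.1e-08), 3.22-fold at 6 d (log2 1.69) and 3.17-fold at 9 d (log2 1.67). The difference of 9 d from 6 d was -0.02 with a 95% interval of -0.17 to 0.12.

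OMD, osteomodulin, is a keratan sulfate proteoglycan best known from bone. Its libraries had 20.19, 34.02 and 58.28 FPKM at 0 d, 6.59, 9.77 and 32.26 at 3 d, 55.10, 75.00 and 157 in the 6 d libraries and 80.00, 6.54 and 28.89 in those of 9 d. The values differed 2.85-fold to 12.2-fold between libraries of one day, and the days overlapped except 3 d with 6 d. OMD was called higher at 6 d vs. 3 d (log2 2.75, SE 0.90, limma with Benjamini-Hochberg adjusted p = 0.028), in 3 of 3 libraries. The call was lost without 3 d replicate 1, 3 d replicate 2, 6 d replicate 2 or 6 d replicate 3 (limma Benjamini-Hochberg adjusted p = 0.0951, 0.0757, 0.0545 and 0.0923, in a range from 0.00965 to 0.0951 over the alternatives). At 9 d vs. 0 d the log2 fold change was -0.46, and 0.49 without 9 d replicate 2, and neither was called.

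The row of PRELP, which links basement membranes to the collagen beneath, and OPTC, opticin, a class III member of the vitreous of the eye, had 8.51, 9.12 and 47.63 FPKM at 0 d and 15.03, 2.86 and 7.42 at 3 d. At 6 d it had 17.36, 1.33 and 1.11 and at 9 d 2.30, 1.93 and 61.71. Single libraries of a day were up to 32-fold apart, and all days overlapped. No comparison called the row, and its widest log2 fold change was -2.32 with an SE of 1.47 (6 d vs. 0 d, limma with Benjamini-Hochberg adjusted p = 0.27).

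OGN of class III encodes osteoglycin, also named mimecan, which binds collagen and is made in bone, muscle and vessel walls. The values were 1442, 1357 and 1423 FPKM at 0 d, 748, 679.8 and 784 at 3 d, 865, 792 and 901 in the 6 d libraries and 1375, 1319.6 and 1439 in those of 9 d. The 3 d and 6 d libraries lay below all others, 3 d just below 6 d, and 9 d overlapped 0 d. OGN was not called: the log2 fold change was -0.93 at 3 d vs. 0 d (SE 0.067, limma with Benjamini-Hochberg adjusted p = 1.2e-06), -0.72 at 6 d vs. 0 d and -0.03 at 9 d vs. 0 d (95% interval -0.18 to 0.12), the last being 0.18 after rescaling by the median ratio.

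PODN of class V encodes podocan, which binds type I collagen and restrains smooth muscle growth. It had 35.65, 33.19 and 35.72 FPKM at 0 d, 77.95, 87.88 and 73.68 at 3 d, 27.16, 26.10 and 26.90 in the 6 d libraries and 30.25, 27.29 and 35.22 in those of 9 d. The 3 d libraries alone were high, the 6 d libraries were below all others, and 9 d overlapped 0 d. PODN rose 2.29-fold at 3 d vs. 0 d (log2 1.19, SE 0.096, limma with Benjamini-Hochberg adjusted p = 3.0e-06) and fell by 1.57 on the log2 scale at 6 d vs. 3 d (limma with Benjamini-Hochberg adjusted p = 5.4e-07). At 6 d vs. 0 d it stood at -0.38 and at 9 d vs. 0 d at -0.18, neither of them called, and the latter was 0.03 after rescaling by the median ratio.

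The 10 rows together summed to 13167 to 14438 FPKM before induction, 43705 to 45326 at 3 d, 33068 to 34936 in the 6 d libraries and 48036 to 49586 in those of 9 d, which is 1.01% to 1.09%, 3.55% to 3.58%, 2.56% to 2.66% and 3.52% to 3.62% of all mRNA FPKM. DCN made up 71.0% to 71.8% of that sum at 0 d and 91.1% to 95.7% in the later libraries. Without DCN the picture was a different one. The other 9 rows summed to 3824 to 4086 FPKM before induction, 1939 to 2187 at 3 d, 2380 to 2563 in the 6 d libraries and 3974 to 4422 in those of 9 d, so that their sum was lowest at 3 d, and the 9 d range overlapped that of 0 d.

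Within these 9 rows FMOD held 40.9% to 42.8% of the FPKM at 0 d, 10.9% to 13.4% at 3 d, 16.2% to 18.5% in the 6 d libraries and 32.7% to 33.0% in those of 9 d. The share of LUM was 5.22% to 5.81%, 29.0% to 32.2%, 27.8% to 28.7% and 15.0% to 18.3% on the same days. OGN kept 32.5% to 37.6% in all 12 libraries. FMOD thus held less than LUM at 3 d and 6 d and more at 0 d and 9 d.

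**Figure D3:**
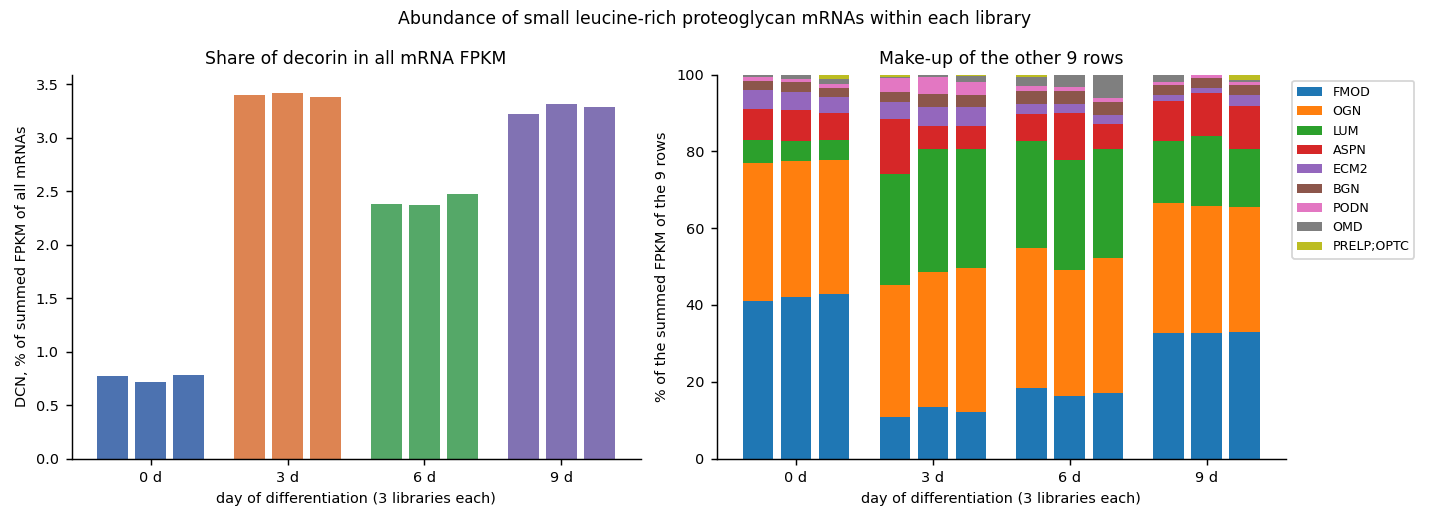
Left, DCN as a percentage of the summed FPKM of all mRNAs (vertical axis) in each library; right, the make-up of the other 9 rows as a percentage of their summed FPKM, with the 3 libraries of each day side by side in both panels. DCN takes 0.719% to 0.785% at 0 d and at least 2.37% later, and LUM holds more than FMOD at 3 d and 6 d but less at 0 d and 9 d.

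Ratios within a library do not depend on how libraries are scaled. FMOD to LUM, the pair that shares a collagen site, went from 7.04 to 8.12 at 0 d to 0.377 to 0.416 at 3 d, 0.563 to 0.664 in the 6 d libraries and 1.79 to 2.20 in those of 9 d, with no overlap between any days. DCN to BGN was 99.1 to 106 at 0 d, 659 to 698 at 3 d, 372 to 386 in the 6 d libraries and 404 to 431 in those of 9 d. The class I pair therefore stood furthest apart at 3 d, where DCN was high and BGN at its lowest. For the chromosome 5 neighbours, DCN to LUM was 43.8 to 48.0 at 0 d, 65.4 to 69.5 at 3 d, 44.4 to 46.4 in the 6 d libraries and 60.7 to 68.0 in those of 9 d. The 6 d range lies inside that of 0 d, and those of 3 d and 9 d overlap.

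Along the cluster of chromosome 8 the neighbours did not keep a fixed ratio. OGN to ECM2 was 7.16 to 8.58 at 0 d and 7.33 to 8.17 at 3 d, and then 13.4 to 14.4 in the 6 d libraries and 11.1 to 26.8 in those of 9 d. OGN to ASPN lay at 4.44 to 4.89 at 0 d and 2.91 to 3.28 at 9 d, with wider ranges of 2.37 to 6.32 at 3 d and 2.71 to 5.40 at 6 d. ASPN to OMD, 2 genes side by side, ran from 1.07 to 67.9 over the 12 libraries. Differences between ratios were not tested.

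**Figure D4:**
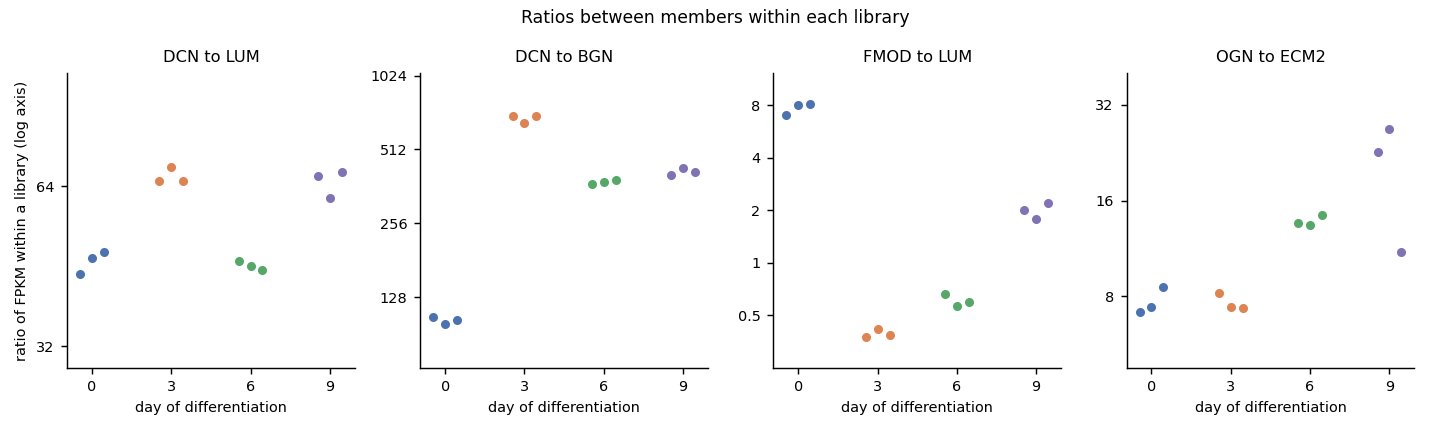
Ratio of the FPKM of 2 members within each library (vertical log axes) by day of differentiation (horizontal axes); each point is a library. DCN to BGN is highest at 3 d, FMOD to LUM is above 7 at 0 d and below 1 at 3 d and 6 d, and OGN to ECM2 is higher at 6 d and 9 d than at 0 d and 3 d.

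The members fell into a steady set and an unsteady one by the spread between libraries of one day. The residual SD of log2(FPKM + 0.1) was 0.0477 for DCN, 0.0526 for BGN, 0.0758 for LUM, 0.0786 for FMOD, 0.0808 for OGN and 0.118 for PODN, all under the median of 0.134 over the 6040 mRNAs with a mean of at least 10 FPKM. It was 0.383 for ECM2, 0.469 for ASPN, 1.21 for OMD and 1.98 for the joint row. Of those 6040 mRNAs, 3.18% had a smaller residual SD than DCN and 98.4% a smaller one than OMD. OMD, ASPN and ECM2 are the neighbours of OGN on chromosome 8, which itself was steady, and whether the assignment of reads in this locus, which CENPP overlaps, plays a part in their spread was not tested, as no reads were used. Libraries that stood high within their day included 3 d replicate 1 and 6 d replicate 2 for ASPN, 6 d replicate 3 for OMD, 0 d replicate 3 for OMD and the joint row and 9 d replicate 3 for ECM2 and the joint row, so some were shared between genes and others were not.

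**Figure D5:**
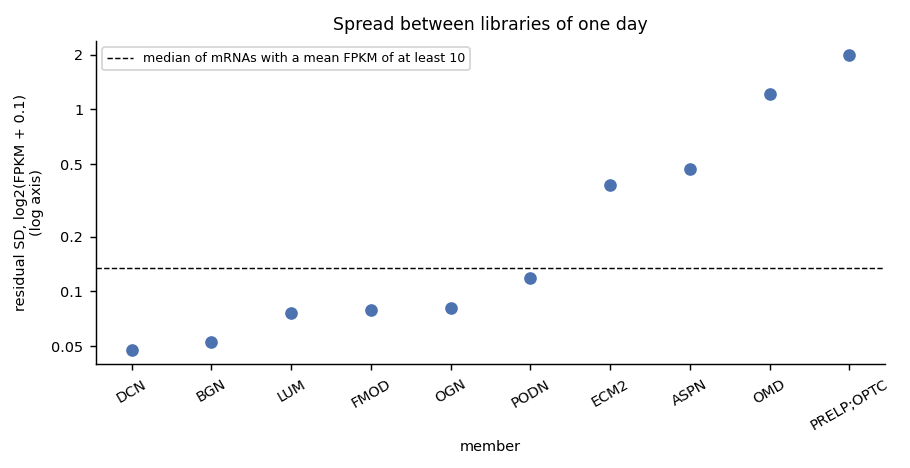
Residual SD of log2(FPKM + 0.1) between libraries of one day (vertical log axis) for each row; the dashed line is the median of 0.134 over mRNAs with a mean of at least 10 FPKM. DCN, BGN, LUM, FMOD, OGN and PODN lie below the line, and ECM2, ASPN, OMD and the joint row above it.

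Likeness of course was measured as the root-mean-square difference of centred log2(FPKM + 0.1) over the 12 libraries. Among the members, the most alike pairs were BGN with OGN (0.203) and DCN with LUM (0.269), and the least alike was OMD with the joint row (2.44). Outside the family, SLC2A3 (0.224) was among the named mRNAs close to DCN, and the 2 closest to LUM were NT5E (0.108) and SLC2A1 (0.142). The glucose transporters SLC2A3 and SLC2A1 had 133 and 1.36 FPKM at 0 d and 557 and 4.29 at 9 d. FMOD was closest to SCG5 (0.196) and GPNMB (0.20), OGN to MROH1 (0.0898) and ARL6IP5 (0.0962), BGN to TCN2 (0.0535) and SUMF1 (0.0598) and PODN to HOXB6 (0.117) and MTFR2 (0.128). For the unsteady members the closest mRNAs were further away: GALNT4 (0.302) and SHANK1 (0.368) for ASPN, DNLZ (0.251) and ARHGAP26 (0.263) for ECM2, RIMKLB (0.721) and PRSS35 (0.746) for OMD and DNAL1 (1.25) and ZNF248 (1.31) for the joint row.

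Circular RNAs (circRNAs), closed by a back-splice, were listed for 4 of the 10 genes, as counts of back-spliced reads in libraries of 5358 to 10729 such reads. LUM had 3 circRNAs with 110 reads in all, DCN 3 with 27, ECM2 2 with 2 and FMOD 1 with 2. Most LUM reads came from circRNA4560, which joins 2 exons between 20972132 and 20975410 on chromosome 5 (ARS-UCD1.2). It had 0, 0 and 3 reads in the 0 d libraries, 12, 7 and 14 at 3 d, 7, 0 and 12 in the 6 d libraries and 14, 4 and 9 in those of 9 d. Every 3 d and 9 d library thus exceeded every 0 d library, while 1 of the 6 d libraries held none. The circRNAs of DCN had 0 reads at 0 d, which allows a share of up to 0.0138% of the 21816 back-spliced reads of that day (counting error only), then 3, 4 and 9 in the 3 d libraries, 0, 0 and 4 at 6 d and 2, 0 and 5 at 9 d. Of these DCN reads, 19 belonged to ciRNA506, an intronic circRNA listed on the strand opposite to the other 2. No test was run on these counts. Per the labels poly(A) RNA was selected, whereas the study's methods name depletion of rRNA, which bears on whether circRNAs are kept.

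Of 8 further family members, 7 had a row of their own and 4 reached the level for testing. TSKU (tsukushi, an inhibitor of BMP signals) was the most abundant, at 23.8 ± 4.08 FPKM at 0 d, 27.8 ± 1.36 at 3 d, 46.8 ± 2.45 in the 6 d libraries and 45.4 ± 0.658 in those of 9 d (SD, n = 3), and it was not called. At 3 d vs. 0 d, NYX was called higher (log2 1.38) at means of 0.233 against 0.0267 FPKM. It reached the level for testing only through 3 d and 6 d, which favours that call. PODNL1, the closest relative of PODN, was called lower at 3 d vs. 0 d (log2 -2.09) at 0.150 against 0.850 FPKM, and CHAD was not called. PODN and PODNL1 were thus called in opposite directions at 3 d, and whether they differ was not tested. CHADL, EPYC and KERA were below a mean of 0.1 FPKM.

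For the gene lists from here on, the shares of all tested mRNAs called higher and lower are 8.06% and 15.2% at 3 d vs. 0 d, 3.39% and 7.97% at 6 d vs. 0 d, 3.41% and 7.47% at 9 d vs. 0 d and 9.85% and 9.23% at 6 d vs. 3 d. Decorin and biglycan carry chondroitin or dermatan sulfate chains. Of the 23 tested genes for the synthesis of these chains, 1 was higher and 2 were lower at 3 d vs. 0 d and 1 was higher and 3 were lower at 9 d vs. 0 d, with medians of -0.21 and 0.15 beside -0.06 and -0.19 for all mRNAs. DSEL, which helps turn chondroitin into dermatan sulfate, went from 257 ± 4.51 FPKM at 0 d to 702 ± 10.2 at 9 d (SD, n = 3; log2 1.45), and CHPF, part of the chain-building enzyme, had the highest mean of the list (2250 FPKM). For keratan sulfate, the chain of fibromodulin, lumican and osteomodulin, 1 of 10 tested genes was higher at 3 d vs. 0 d and 3 were lower, with a median of -0.23. These were led by the sulfotransferases CHST2 (log2 1.83) and CHST6 (log2 -1.72), and CHST6 had 2.54, 0.703, 0.753 and 2.35 FPKM on the 4 days, lowest on the days when FMOD was lowest.

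Of the 12 tested fibrillar and associated collagens that the family binds, 6 were lower and 1 was higher at 3 d vs. 0 d (median -0.77 beside -0.06). The mRNA that fell most was COL11A1, from 182 to 24.6 FPKM (log2 -2.88), and COL5A3 was the one that rose (log2 1.35). At 6 d vs. 3 d 6 collagens were higher and 1 was lower (median 1.15 beside -0.09), and at 9 d vs. 0 d COL5A3 was lower (log2 -1.03) and 11 were not called. COL3A1, the most abundant collagen here, had means of 105800, 126600, 96300 and 170800 FPKM on the 4 days in order (log2 0.69 at 9 d vs. 0 d), and was not called in any of the 5 comparisons. The summed level of the list, most of it COL3A1, was 125800 to 131300 FPKM before induction, 134400 to 141700 at 3 d, 120500 to 126600 in the 6 d libraries and 188900 to 202600 in those of 9 d.

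Of 12 tested growth factors and matrix ligands, 1 was higher and 5 were lower at 3 d vs. 0 d (median -0.58). IGF1 was the one that rose (log2 2.90), and CTGF, a matrix growth factor that decorin binds, fell from 2436 ± 81.0 to 56.4 ± 3.03 FPKM (SD, n = 3; log2 -5.43) and stood at 1907 at 9 d. In the comparison of 9 d with 0 d, 1 was higher (BMP4, log2 1.87) and 3 were lower, led by TNXB (log2 -6.06), a tenascin that bridges collagen and decorin. ELN, elastin, had the highest mean of the list (5010 FPKM).

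Among 13 tested receptors, 1 was higher and 3 were lower at 3 d vs. 0 d (median -0.34). CD14, a co-receptor of the TLRs that biglycan binds, rose from 0.673 to 2.40 FPKM (log2 1.71), and CD44 fell by 3.08 on the log2 scale. MET, a receptor that decorin binds, fell by 1.51 at 9 d vs. 0 d. LRP1, the endocytic receptor of decorin, was listed at means of 40000 to 67870 FPKM, above DCN at 0 d, 3 d, 6 d and 9 d, and was not called in the comparisons with 0 d. Of 8 tested proteases and their enhancers, 5 were higher and 1 was lower at 3 d vs. 0 d (median 1.24). MMP13, 1 of the 5, was at 0 FPKM in the 0 d libraries and at a mean of 0.55 at 3 d, and reached the level for testing only through 3 d. The filter thus favoured its call at 3 d vs. 0 d, and also its call as lower at 6 d vs. 3 d. ADAMTS4 rose from 13.3 ± 2.1 to 855 ± 88.4 FPKM (SD, n = 3; log2 6.00), MMP2, the most abundant, from 912 to 3419 FPKM, and PCOLCE2 was the one that fell (log2 -1.65). At 6 d vs. 0 d, 2 were higher and 3 were lower (median -0.67), the latter being ADAMTS1, ADAMTS5 and MMP14, and at 6 d vs. 3 d 1 was higher and 5 were lower (median -1.86).

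The labelled cell type was checked against marker genes. Of 10 adipocyte markers, 8 had a row of their own and were tested, and 5 were higher on each of 3, 6 and 9 d vs. 0 d, though not the same 5. ADIPOQ, FABP4 and CD36 were higher on all 3 days, LPL and PNPLA2 at 3 d alone, and CIDEC and LEP at 6 d and 9 d. ADIPOQ and CIDEC had 0 d means under 0.1 FPKM and reached the level for testing only through later days, which favours their calls as higher. LEP was the 1 called lower at 3 d (log2 -4.07, from 2.34 to 0.070 FPKM). The summed level of the 8 was 12.03 to 12.99 FPKM before induction, 105 to 115 at 3 d, 41.9 to 43.2 in the 6 d libraries and 40.7 to 49.3 in those of 9 d. FABP4 had the highest mean of the list at 3 d (91.1 FPKM) and 6 d (26.4), LPL at 0 d (4.53) and LEP at 9 d (20.5). PPARG and PLIN1 were listed only in rows shared with other genes. ADIPOQ and CEBPA were named after their values were seen. ADIPOQ had means of 0.0233 to 0.723 FPKM with up to 1.64 in a single library, and its log2 fold changes were 2.68, 2.22 and 2.34 at 3, 6 and 9 d vs. 0 d. CEBPA had means of 0.050 to 0.220 FPKM and was called in no comparison.

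Markers of other cells also moved over these days. The 9 tested skeletal muscle markers summed to 828 to 943 FPKM before induction, 272 to 301 at 3 d, 381 to 424 in the 6 d libraries and 294 to 329 in those of 9 d, with DES the most abundant, and 6 of them were lower at 3 d vs. 0 d, led by CKM (log2 -5.39). MYOD1, which defines myoblasts and was named after its values were seen, had 268 ± 32.5 FPKM at 0 d and 54.6 ± 10.5 at 9 d (SD, n = 3), so the cultures were not free of myogenic transcripts. The 10 fibroblast and progenitor markers summed to 730.0 to 804 FPKM before induction, 1307 to 1453 at 3 d, 548 to 589 in the 6 d libraries and 619 to 648 in those of 9 d, with 3 higher and 4 lower at 3 d vs. 0 d (median -0.50). PDGFRA, the most abundant, went from 160 to 930 FPKM at 3 d, more than the rise of the sum, while COL15A1 (log2 -3.82), S100A4 (log2 -3.79) and FAP (log2 -3.50) fell. The smooth muscle and pericyte markers summed to 2847 to 3013 FPKM before induction, 451 to 498 at 3 d, 2160 to 2287 in the 6 d libraries and 1457 to 1582 in those of 9 d. At 3 d vs. 0 d, 5 of the 7 tested were lower, with ACTA2 the most abundant (log2 -5.98), and MCAM was higher (log2 2.29).

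The 7 tested glucocorticoid response genes summed to 355 to 401 FPKM before induction, 1145 to 1283 at 3 d, 969 to 1108 in the 6 d libraries and 492 to 521 in those of 9 d. Of these 7, 6 were higher at 3 d vs. 0 d, led by ZBTB16 (log2 9.29), and DUSP1 was the most abundant. PTPRC and HBB were at 0 in all 12 libraries, and 6 of 10 blood and immune markers had a mean under 0.1 FPKM, while CD163, the most abundant of them, rose to 134 FPKM at 3 d (log2 7.40). Of the 4 blood and immune markers tested, 3 were higher at 3 d vs. 0 d, CD163, CSF1R (log2 1.23) and CD79A (log2 3.34). Of 8 endothelial markers, 5 had a mean under 0.1 FPKM, and VWF was the most abundant (2.06 FPKM). The 10 tendon, cartilage and bone markers summed to 17.5 to 84.2 FPKM over the 12 libraries, with RUNX2 the most abundant. The lowest sum was that of 3 d replicate 3 alone, where RUNX2 had 10.3 FPKM, and the next lowest was 54.4 in 3 d replicate 2. Of the 7 tested, 2 were lower at 3 d vs. 0 d, led by ACAN (log2 -4.61). The part of any of these cells or responses in the levels of the proteoglycans was not tested.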

How the data were processed

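The authors mapped reads to the bovine genome and assembled and quantified transcripts, and the deposited mRNA values are FPKM. For circRNAs the authors deposited a count of back-spliced reads per library, used as a description. The submitters' processing notes name HISAT2 2.0, StringTie 1.3.0 and Bowtie 0.12.2, and the files' coordinates are of ARS-UCD1.2, while the labels name the mouse build mm8. The study states edgeR for its own tests, but FPKM are not counts, so limma 3.58.1 (R 4.3.3; lmFit, contrasts.fit, eBayes with trend, not robust) was fitted on log2(FPKM + 0.1) for mRNAs with a mean of at least 0.1 FPKM, a scale that understates changes of low genes. An mRNA under 0.1 FPKM on some days could pass this filter through the other days alone, which favours a call between them. The summed FPKM of all mRNAs were 1221194 to 1371794 per library. Fits were tested on simulated data. The 12 columns of scaled circRNA values, the lncRNA table and the miRNA table were not used here.

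The members and gene lists were chosen with earlier results of these data known. All members were named, with the 2 mRNAs most alike each one in course, the detected relatives, and from the lists a choice of genes called with a large rise or fall or having a high mean, so that other called genes of a list are left unnamed. Alternatives were pseudocounts of 1 and 0.01, no filter or a mean of at least 1 FPKM, rescaling by median ratio or to equal sums, a fit restricted to the 6 libraries of a comparison, a replicate block, robust estimation, the adjusted p alone, and leaving out each library. Tables and figures used Python 3.11.15, NumPy 2.4.6, pandas 2.3.3 and Matplotlib 3.10.9.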

Additional observations from a re-analysis of the deposited data

How the results depend on the processing

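Across 21 alternatives and 5 comparisons, 923 fold changes of the 9 members with their own row kept their direction and stayed called or not called, 14 lost a call, 1 gained one and 7 turned. Some of those that stayed uncalled crossed the adjusted p threshold alone: that of BGN at 6 d vs. 0 d was 0.011 and reached 0.607, and that of FMOD at 9 d vs. 0 d was 0.0066 and reached 0.441 (limma, Benjamini-Hochberg). DCN, LUM, FMOD, PODN and ECM2 kept every call of theirs in all 21 alternatives. A pseudocount of 1 lowered the mRNAs called to 2184 at 3 d vs. 0 d, 967 at 6 d vs. 0 d, 888 at 9 d vs. 0 d, 1688 at 6 d vs. 3 d and 368 at 9 d vs. 6 d, and a mean of at least 1 FPKM gave 1114 at 9 d vs. 0 d, since fewer mRNAs were tested. By adjusted p alone, with no fold threshold and not among the 21, 7, 7, 4, 6 and 5 members passed in these 5 comparisons, against 52.2%, 34.8%, 36.8%, 49.5% and 20.7% of all tested mRNAs. Leaving out 1 library gave 1 to 2 members lower at 3 d vs. 0 d, 1 to 2 called and 0 to 1 higher at 6 d vs. 3 d, and 1 to 2 called, all higher, at 9 d vs. 6 d; the cause was not tested.

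With no filter, 1 member was called at 9 d vs. 6 d. With a replicate block, 1 member was called there too, since ASPN had an adjusted p of 0.0661 (limma, Benjamini-Hochberg), and no other call of a member changed. Equally numbered libraries were little more alike than others. Their deviations had a mean r of 0.0274 (-0.0981 to 0.112, 18 pairs) against -0.0137 (-0.19 to 0.183, 36 pairs) for the others. Of the 12 libraries, 6 were best with their own number, and whether the numbers pair libraries was not tested.

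Rescaling by the median ratio gave 0.177 for OGN and 0.0286 for PODN at 9 d vs. 0 d and 0.0151 for LUM at 9 d vs. 6 d. Leaving out 1 library gave ranges on the log2 scale at 9 d vs. 6 d of -0.0672 to 0.0118 for LUM, -0.18 to 0.52 for ECM2 and -0.50 to 2.35 for PRELP;OPTC, and at 9 d vs. 0 d of -1.31 to 0.49 for OMD; none was called. FPKM carry no depth, 3 libraries a day limit precision, and circRNA counts were near their floor.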
